A study of Mus musculus with 32 samples.

Results

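The genes followed here across all arrays are 9 that lung macrophages are known for: Marco, Mrc1, Cd68, Csf1r, Csf2ra, Trem2, Gpnmb, Spp1 and Msr1. They were taken by gene name from the per-array files, which held 12 probes for these 9 genes among 55681 mouse probes and 35715 gene names. All 12 probes passed the filter on dim probes at both ages. Csf1r had 3 probes, Msr1 had 2 and each of the others had 1, and the brightest probe of a gene stands for it unless another is named.

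RNA was from whole lungs of wild-type C57BL/6J mice, one mouse to an array (32 arrays), in 8 groups of 4. Pups were kept in normoxia (21% O2) or hyperoxia (85% O2, the newborn mouse model of bronchopulmonary dysplasia), and were killed at post-natal day (P)5 or P14. At each age and oxygen level, 4 mice had received a scrambled antimiR (SCR) and 4 an antimiR against miR-34a (A34a), so the controls too were injected with an oligonucleotide. The questions were whether lung transcripts change in hyperoxia, and whether neutralizing miR-34a alters them. The mature strand the antimiR is directed at lies at chr4:150068473-150068494 on the plus strand (GRCm38.p6, RefSeq), and is shown because it defines the treatment, with capitals for its seed, bases 2 to 8.

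mmu-miR-34a-5p: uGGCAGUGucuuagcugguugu

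No probe carried the gene name Mir34a (0 probes), so the arrays did not check how far miR-34a was neutralized.

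Lungs were perfused until free of blood, and the type II pneumocyte gene Sftpc and the type I pneumocyte gene Ager were well above background on all 32 arrays. Between 33607 and 40776 probes per array were well above background, and the number of arrays limits the precision. Each slide held the arrays of 1 age and 1 oxygen level, and SCR and A34a lay in different rows of the slides. Slide and oxygen level cannot be told apart, nor can row and antimiR. Skeletal muscle genes set 1 array apart, SCR replicate 4 in 21% O2 at P5, where the score of 6 muscle genes reached 3.24 above their mean. The lowest array of the same group was at -0.18.

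The lung holds alveolar macrophages in the airspaces and interstitial macrophages in the tissue, and monocytes can add to both. Their numbers are largely set by the cytokines M-CSF, which signals through CSF1R, and GM-CSF, whose receptor has CSF2RA as its ligand-binding chain and is needed for alveolar macrophages to mature around birth. MARCO, MSR1 and MRC1 are surface receptors that bind particles, modified lipoproteins and mannose-bearing glycoproteins. CD68 is a lysosomal membrane glycoprotein. TREM2 is a lipid-sensing receptor that signals with the adaptor TYROBP, GPNMB is a glycoprotein of lysosome-rich macrophages, and SPP1 (osteopontin) is a secreted ligand of integrins and CD44. TREM2, GPNMB and SPP1 are known as a set of genes of lipid-laden and scar-associated macrophages.

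Promoter sequence was at hand for 7 of the 9 genes (RefSeq, GRCm38.p6), and not for Csf1r and Msr1. For 4 of these, the 250 bases before the annotated start are shown, because Marco, Trem2 and Spp1 rose in hyperoxia while Csf2ra gave no call. Spp1 has 2 annotated starts, and the window of the second, not shown, held none of the motifs searched. Capitals mark GAGGAA or, on the other strand, TTCCTC, the core letters bound by PU.1, the transcription factor of the myeloid lineage.

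Marco, chr1:120505025-120505274, minus strand: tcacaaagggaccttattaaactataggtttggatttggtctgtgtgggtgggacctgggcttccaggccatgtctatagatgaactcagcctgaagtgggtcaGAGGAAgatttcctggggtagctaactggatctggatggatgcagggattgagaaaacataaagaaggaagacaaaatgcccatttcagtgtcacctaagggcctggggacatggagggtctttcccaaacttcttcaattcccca

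Trem2, chr17:48346151-48346400, plus strand: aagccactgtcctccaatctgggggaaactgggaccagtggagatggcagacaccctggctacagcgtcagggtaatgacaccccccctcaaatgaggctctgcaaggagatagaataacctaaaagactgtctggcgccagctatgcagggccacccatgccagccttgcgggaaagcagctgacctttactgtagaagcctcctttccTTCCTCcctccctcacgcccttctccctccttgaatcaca

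Spp1, chr5:104434861-104435110, plus strand: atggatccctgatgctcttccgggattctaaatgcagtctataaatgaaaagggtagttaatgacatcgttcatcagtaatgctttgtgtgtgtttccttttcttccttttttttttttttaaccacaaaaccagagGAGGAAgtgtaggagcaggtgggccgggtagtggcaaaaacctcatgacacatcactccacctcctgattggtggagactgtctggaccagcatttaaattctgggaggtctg

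Csf2ra, chr19:61228419-61228668, minus strand: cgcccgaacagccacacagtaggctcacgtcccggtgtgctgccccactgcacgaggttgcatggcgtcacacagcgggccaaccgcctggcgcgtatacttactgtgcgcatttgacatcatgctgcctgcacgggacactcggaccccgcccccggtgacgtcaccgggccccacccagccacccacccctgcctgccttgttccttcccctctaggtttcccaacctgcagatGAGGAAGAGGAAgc

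GAGGAA was found on either strand in 6 of the 7 genes, the exception being Gpnmb. Of 32851 promoter windows of the same length, 23.3% held it, or 6986 of 27025 genes. In Csf2ra a pair of adjoining copies ended 3 bases before the start. The AP-1 letters TGANTCA were in the windows of Cd68 (at 2 places) and Trem2, against 6.75% of all windows. The M-box letters CATGTG were in that of Mrc1 (12.3% of all windows). The E-box letters CACGTG, which share their outer bases with CATGTG, were in none (6.02% of all), and the antioxidant response element core TGACNNNGC was in none (10.2% of all). A match of letters is not a site shown to be used.

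Levels are log2 signals counted from each array's own 75th percentile, so a level of 0 is that percentile and a difference of 1 is 2-fold. Levels of different probes are not set against each other. Tests are from limma with Benjamini-Hochberg adjustment over all probes tested, with a threshold of 0.05.

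In SCR mice at P5, 8 of the 9 genes were higher in 85% O2 than in 21% O2, and at P14 7 of 9 were. Gpnmb, Spp1 and Marco had the 3 largest differences at P5 (4.63-, 4.66- and 3.57-fold), and at P14 Trem2 and Msr1 joined them, all 5 being over 4.6-fold higher. Csf2ra differed by less than the spread between mice at both ages. Of all probes tested, 17.5% were called higher at P5 and 28.4% at P14. In whole lung, a change in the number of cells of a type and a change in RNA per cell cannot be told apart.

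Gpnmb, read by a probe at chr6:49006386-49006445 (mm9, as are the other probe positions), was at -2.50, -2.98, -2.39 and -2.37 on the 4 SCR arrays in 21% O2 at P5, and at -0.96, -0.13, -0.17 and -0.14 in 85% O2. At P14 it was at -1.94, -1.80, -1.90 and -2.46 in 21% O2, and at 0.83, 0.26, 0.07 and -0.06 in 85% O2. The oxygen groups were separate at both ages, and replicate 1 at P5 was the lowest in hyperoxia. The difference was 2.21 ± 0.26 (SE, n = 4 per group) at P5, with an adjusted p of 1.714e-05, and 2.30 ± 0.18 at P14, with an adjusted p of 1.818e-07.

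Trem2 (probe at chr17:48491537-48491596) was at 0.25, 0.18, 0.23 and 0.23 in 21% O2 at P5 and at 0.95, 1.36, 0.88 and 1.35 in 85% O2. At P14 the arrays read 0.18, -0.24, 0.09 and -0.33 in 21% O2 and 2.52, 2.16, 2.08 and 1.81 in 85% O2. No array of one oxygen level reached the other, and the gap was wider at P14. The difference was 0.91 ± 0.14 (SE, n = 4 per group, adjusted p = 0.0001813) at P5 and 2.22 ± 0.15 (adjusted p = 5.116e-08) at P14.

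Spp1 (probe at chr5:104868502-104868561) was at -4.51, -5.01, -4.84 and -3.53 in 21% O2 at P5 and at -3.54, -1.69, -2.14 and -1.64 in 85% O2. The groups met at P5, because replicate 1 in hyperoxia lay at the level of replicate 4 in normoxia, the array with muscle genes. At P14 the arrays read -3.64, -3.19, -3.26 and -3.41 in 21% O2 and -0.00, -0.13, -1.03 and -1.51 in 85% O2, without overlap. The difference was 2.22 ± 0.39 (SE, n = 4 per group, adjusted p = 0.0004314) at P5 and 2.71 ± 0.34 (adjusted p = 1.482e-05) at P14. With normexp background correction, another way to treat dim signals, the difference at P5 was 1.36, still called. Without the array with muscle genes, Spp1 rose by 2.54 at P5 (adjusted p = 0.0001658), and all 8 calls were kept.

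Cd68 (probe at chr11:69477775-69477834) was at 1.20, 1.45, 1.46 and 1.53 in 21% O2 at P5 and at 2.06, 2.84, 2.58 and 2.90 in 85% O2. At P14 it was at 2.04, 1.97, 1.95 and 1.80 in 21% O2 and at 3.17, 2.76, 2.68 and 2.64 in 85% O2. The groups did not overlap at either age. The difference was 1.19 ± 0.16 (SE, n = 4 per group, adjusted p = 3.661e-05) at P5 and 0.87 ± 0.12 (adjusted p = 2.416e-05) at P14.

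Among the scavenger receptors, Marco (probe at chr1:122371170-122371230) was at 2.04, 2.26, 1.46 and 2.11 in 21% O2 at P5 and at 3.05, 4.01, 4.07 and 4.09 in 85% O2. At P14 it was at 2.06, 2.38, 2.35 and 2.31 in 21% O2 and at 5.44, 4.40, 4.64 and 4.23 in 85% O2. Replicate 1 in hyperoxia was the lowest of its group at P5, and a different mouse with the same number was the highest at P14, yet both stood above all normoxic arrays of their age. The difference was 1.83 ± 0.24 (SE, n = 4 per group, adjusted p = 3.225e-05) at P5 and 2.40 ± 0.21 (adjusted p = 5.029e-07) at P14.

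Msr1 (probe at chr8:40689158-40689217) was at -4.58, -4.29, -4.87 and -3.98 in 21% O2 at P5 and at -3.54, -2.89, -2.76 and -2.95 in 85% O2. At P14 it was at -4.54, -4.41, -4.50 and -4.63 in 21% O2 and at -2.17, -2.26, -2.34 and -2.31 in 85% O2. At P14 the 4 hyperoxic arrays had an SD of 0.07 and stood far above the normoxic arrays. The difference was 1.39 ± 0.23 (SE, n = 4 per group, adjusted p = 0.0002214) at P5 and 2.25 ± 0.22 (adjusted p = 1.657e-06) at P14. With normexp correction it was 0.83 at P5, still called. The dimmer Msr1 probe gave 1.45 at P5 and 1.98 at P14, both called.

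Mrc1, the mannose receptor (probe at chr2:14253273-14253332), moved least of the 3 scavenger receptors. It was at 1.29, 1.29, 1.14 and 1.33 in 21% O2 at P5 and at 1.64, 1.53, 1.56 and 1.71 in 85% O2, and at P14 at 1.37, 1.41, 1.37 and 1.31 against 2.30, 2.31, 2.36 and 2.19. The groups were narrow and separate at both ages. The difference was 0.35 ± 0.11 (SE, n = 4 per group, adjusted p = 0.01538) at P5 and 0.93 ± 0.14 (adjusted p = 9.169e-05) at P14.

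Of the growth factor receptors, Csf1r was at 3.98, 4.10, 3.91 and 4.02 in 21% O2 at P5 and at 4.21, 4.28, 4.20 and 4.40 in 85% O2, a difference of 0.27 ± 0.09 (SE, n = 4 per group, adjusted p = 0.01897). At P14 it was at 4.52, 4.48, 4.59 and 4.30 against 4.89, 4.79, 4.53 and 4.41, and the groups overlapped (0.18 ± 0.15, adjusted p = 0.3071). Its 3 probes did not move together, so the direction for Csf1r is uncertain. The second probe gave 0.62 at P5 (adjusted p = 0.005363) and -0.31 at P14 (adjusted p = 0.0861), and the third was lower in 85% O2 at both ages (-0.44, adjusted p = 0.0004802, and -0.78, adjusted p = 0.0001121). All 3 lie on mouse chromosome 18 in the array's mm9 annotation, the third farthest upstream. With the mean of the probes in place of the brightest, Csf1r at P5 was 0.15 higher (adjusted p = 0.1056). At P14 that mean was called lower in 85% O2, with a difference of -0.303 in both SCR and A34a mice, and the effects at P14 and P5 in SCR mice differed by -0.452, also called.

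Csf2ra (probe at chr19:61300336-61300395) was at 3.38, 3.65, 3.49 and 3.85 in 21% O2 at P5 and at 3.35, 3.58, 3.41 and 4.00 in 85% O2. At P14 it was at 3.47, 3.54, 3.51 and 3.102 against 3.67, 3.47, 3.25 and 3.23. The groups overlapped fully at both ages. The difference was -0.01 at P5 (95% interval -0.29 to 0.28, adjusted p = 0.9707) and 0.00 at P14 (-0.26 to 0.26, adjusted p = 0.9798). At P14 the sign depended on the processing for both receptors, with differences from -0.30 to 0.32 for Csf1r and from -0.16 to 0.18 for Csf2ra over the settings run. Csf2ra was called higher in 1 of those 12 settings, with array brightness as a covariate (0.18, adjusted p = 0.01793).

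**Figure D1:**
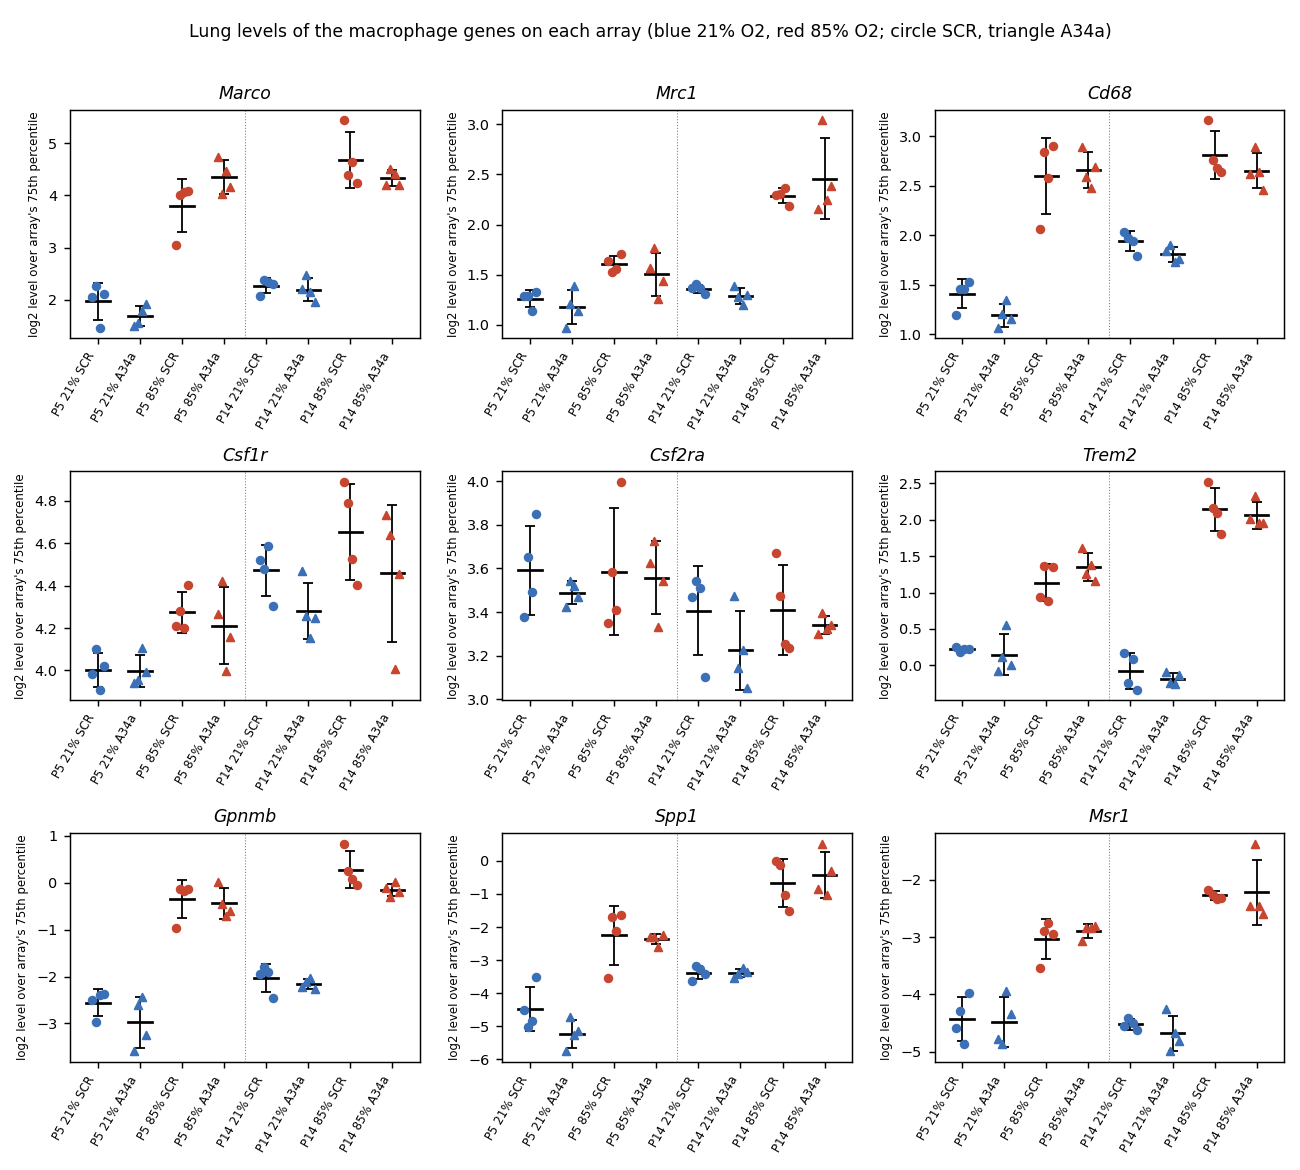
Level of each of the 9 genes (y axis, log2 signal over the 75th percentile of the array) on each of the 32 arrays, by group (x axis), with points for arrays and bars for the mean and SD of 4 mice. Both hyperoxic groups of Gpnmb, Trem2 and Marco stand above both normoxic groups at each age, while for Csf2ra the oxygen groups overlap at each age in SCR mice.

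In SCR mice, every hyperoxic array was above every normoxic array for 7 of the 9 genes at P5, where this held for 15.6% of all probes tested, and for 7 of 9 at P14, where it held for 26.8%. The median difference of the 9 genes was 1.19 at P5, against -0.07 over all probes tested, and 2.22 at P14, against -0.07. The genes not separated were Csf2ra at both ages, Spp1 at P5 and Csf1r at P14.

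A34a mice gave a second set of animals for the same comparison, on the same slides, so slide and oxygen level coincide here too. At P5, 7 of 9 genes were called higher in 85% O2 (17.2% of all probes) and 6 were higher on every array (15.7% of all probes). The differences were 2.86 for Spp1, 2.66 for Marco, 2.54 for Gpnmb, 1.59 for Msr1, 1.47 for Cd68, 1.20 for Trem2 and 0.33 for Mrc1. With normexp background correction those of Spp1 and Msr1 were 1.37 and 0.88, both still called. The call of Mrc1 was lost with the compared groups alone in the fit (adjusted p = 0.06864) and with the methods' t-test (adjusted p = 0.1156), and 6 genes were then called. Csf1r missed the threshold at 0.21 (adjusted p = 0.05144). It was called in 2 of 11 settings, the main one included, and these 11 gave 0.047 to 0.22. Its second probe was called higher (0.46, adjusted p = 0.02466) and the third lower (-0.53, adjusted p = 8.549e-05). Csf2ra was at 0.07. In A34a mice in 21% O2 at P5, Spp1 was well above background on 3 of 4 arrays, so its difference there is the least certain.

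At P14, 7 of 9 genes were again called higher (27.8% of all probes), each on every array (25.8% of all probes). Spp1 was 2.97 higher, Msr1 2.46, Trem2 2.24, Marco 2.13, Gpnmb 2.01, Mrc1 1.17 and Cd68 0.85. With normexp correction Msr1 was 1.51 higher, still called. Csf1r (0.18, adjusted p = 0.3075) and Csf2ra (0.12, adjusted p = 0.4143) were not called. The median of the 9 genes was 1.47 at P5 and 2.01 at P14, against -0.09 and -0.11 over all probes.

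**Figure D2:**
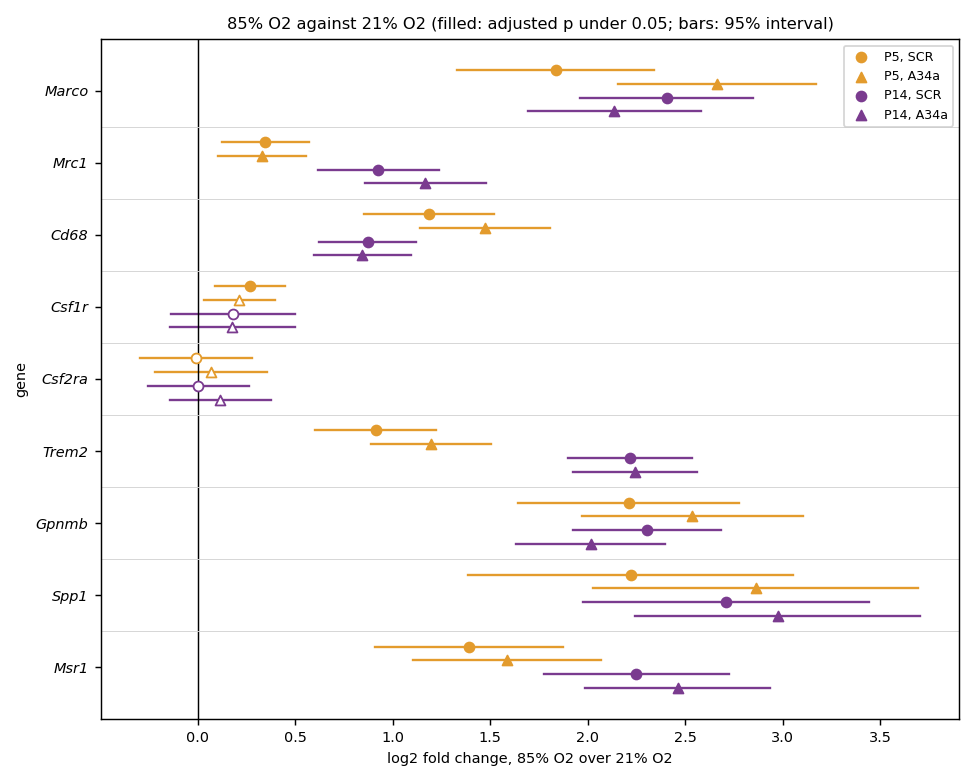
Difference between 85% O2 and 21% O2 for each gene (x axis, log2, with 95% interval) in SCR and A34a mice at P5 and P14, filled where the adjusted p was under 0.05. Spp1, Marco, Gpnmb, Trem2, Msr1, Cd68 and Mrc1 are filled in all 4 comparisons, Csf2ra in none, and Csf1r in SCR mice at P5 alone.

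The size of the hyperoxia effect was then compared between ages in SCR mice. Trem2, Msr1 and Mrc1 had a larger difference at P14 than at P5, in a setting where 40.9% of all probes tested gave a call in either direction. For Trem2 the effects differed by 1.31 ± 0.21 (SE, adjusted p = 3.164e-05), and for Mrc1 by 0.58 ± 0.18 (adjusted p = 0.01234). For Msr1 they differed by 0.86 ± 0.33 (adjusted p = 0.03715), and this call was lost in 7 of 16 fits that each left out an array, down to 0.69 without SCR replicate 1 in 85% O2 at P5 (adjusted p = 0.09198). It was lost as well with no filter on dim probes (adjusted p = 0.05151) and with the mean of its probes (0.695, adjusted p = 0.08866). The dimmer Msr1 probe gave 0.53 (adjusted p = 0.3012). Cd68 went the other way without passing the test (-0.32, adjusted p = 0.2082), and Gpnmb had like effects at both ages (0.09, 95% interval -0.59 to 0.77).

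With normal development in 21% O2, Cd68, Csf1r and Spp1 were higher at P14 than at P5 in SCR mice, 3 of 9 genes where 27.8% of all probes were called higher. Cd68 rose by 0.53 ± 0.14 (SE, n = 4 per group, adjusted p = 0.002755), and Csf1r by 0.47 ± 0.12 (adjusted p = 0.00242), with all 3 Csf1r probes called higher. Spp1 rose by 1.09 ± 0.38 (adjusted p = 0.01885), but its groups overlapped, and the call was lost without replicate 2 (0.91, adjusted p = 0.06898) or replicate 3 (0.97, adjusted p = 0.05698) of the P5 group. It was lost too with normexp correction (0.51, adjusted p = 0.1232) and with the methods' t-test (adjusted p = 0.08309). Trem2 stood lower on all 4 arrays at P14, with a difference of -0.30 (adjusted p = 0.09684). The ages also differed in slide and, by the sample labels, in the agent used to kill the mice (the methods name one agent for both), and these cannot be told apart from age.

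Ordered by group mean, all 4 hyperoxic groups ranked above all 4 normoxic groups for Marco, Cd68, Mrc1, Trem2, Gpnmb, Spp1 and Msr1. The span from the lowest to the highest group mean was 4.80 for Spp1, 3.25 for Gpnmb, 2.99 for Marco, 2.46 for Msr1, 2.32 for Trem2, 1.62 for Cd68, 1.28 for Mrc1, 0.66 for Csf1r and 0.37 for Csf2ra. Of the 7 steps between neighbouring group means, 4 exceeded the larger SD of the neighbours for Cd68 and for Spp1, 3 for Gpnmb, 2 for Marco, for Trem2 and for Msr1, and 1 for Mrc1 and for Csf1r. No step did for Csf2ra. Neither the order nor the steps were counted over all probes. Of these, 43.9% to 65.6% were called in the comparisons of oxygen levels.

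AntimiR-34a was compared with the scrambled antimiR within each age and oxygen level. With all arrays, none of the 9 genes was called in any of the 4 comparisons with limma, nor with the methods' t-test. Over all probes tested, 0.136% were called in 21% O2 and 0.0639% in 85% O2 at P5, and 0% and 2.66% at P14. The 1024 probes behind that last share rested on the fit, since 2 were called with the compared groups alone in the fit and 0 with the methods' t-test. In 21% O2 at P14, 4053 probes had an unadjusted p under 0.05 in limma. With both arrays of unusual brightness in that comparison left out (SCR replicate 4 and A34a replicate 1), Csf2ra was called lower in A34a mice (-0.36, adjusted p = 0.03534, against -0.18 with all arrays), and 5943 probes in all were called, against 0. The SCR arrays left were all brighter (75th percentile 10.119 to 10.174) than the A34a arrays left (9.558 to 9.635). Brightness and antimiR cannot be told apart in that fit. These comparisons share their SCR arrays with those of oxygen levels.

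Marco in 85% O2 at P5 was at 4.74, 4.03, 4.47 and 4.17 in A34a mice, against the SCR values above, a difference of 0.55 with an unadjusted p of 0.0363 and an adjusted p of 0.3562. Without SCR replicate 1, the low array of its group, it was 0.29 (adjusted p = 0.4175). Gpnmb in 85% O2 at P14 was at -0.12, -0.30, 0.02 and -0.20 in A34a mice, a difference of -0.43 with an unadjusted p of 0.03049 and an adjusted p of 0.2361. Without SCR replicate 1, the highest of its group, it was -0.24 (adjusted p = 0.4051). The groups overlapped for both genes. These were the 2 of the 9 genes with an unadjusted p under 0.05, and neither passed the adjustment.

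In 85% O2 the intervals bound what could have gone unseen. For Trem2 the 95% interval of the A34a difference ran from -0.10 to 0.52 at P5, and at P14 its bounds were -0.40 and 0.24. For Cd68 the bounds were -0.27 and 0.40 at P5 and -0.41 and 0.09 at P14. Spp1 was measured least closely, with bounds of -0.95 and 0.72 at P5 and of -0.48 and 0.98 at P14. In 21% O2 the differences of the 9 genes lay between -0.75 (Spp1, adjusted p = 0.3271) and -0.01 at P5 and between -0.19 and -0.02 at P14. That of Spp1 was -0.44 without the array with muscle genes (adjusted p = 0.6457), -0.24 with array brightness as a covariate (adjusted p = 0.854) and -0.055 with normexp correction (adjusted p = 0.8744).

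A difference in the antimiR effect between oxygen levels was called for 0 of the 9 genes at either age (0.0556% of all probes called at P5 and 0.0884% at P14). The largest such difference was for Marco at P5 (0.83 ± 0.33, SE, unadjusted p = 0.02628, adjusted p = 0.3954). With both P14 21% O2 arrays of unusual brightness left out, 6142 probes were called at P14, against 34, and still 0 of the 9 genes.

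**Figure D3:**
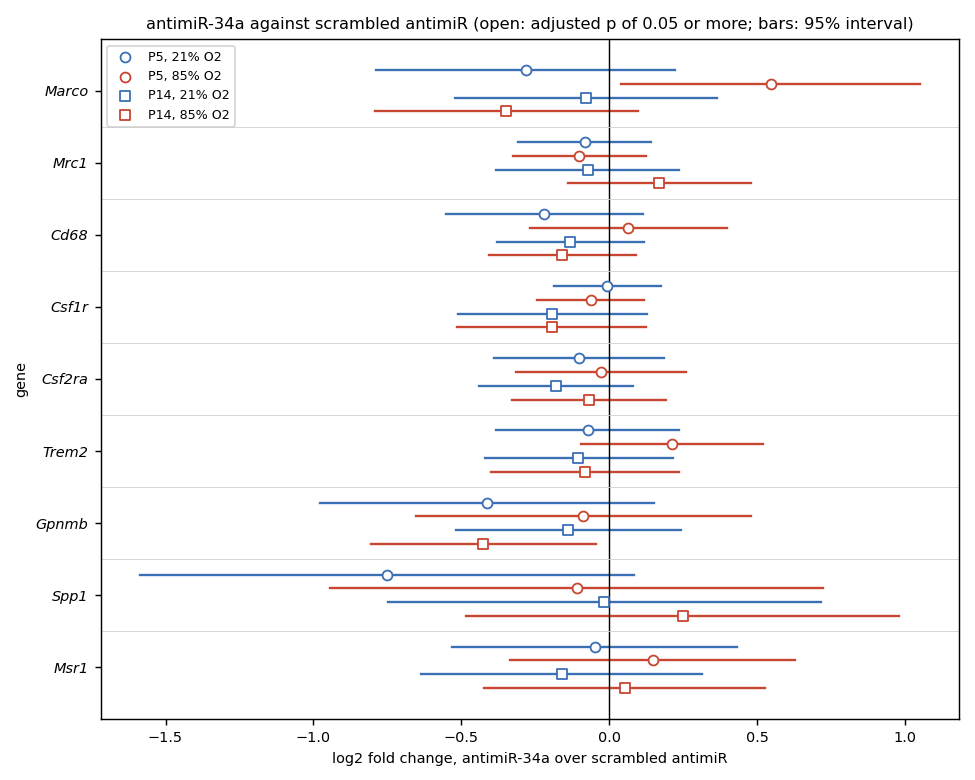
Difference between A34a and SCR for each gene (x axis, log2, with 95% interval) in 21% O2 and 85% O2 at P5 and P14. All points are open (adjusted p of 0.05 or above), and the widest intervals are those of Spp1 at P5.

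Other genes of the same cells were counted from lists of known markers and pathway genes, in SCR mice. Beside the shares called higher above, 26.4% of all probes were called lower in hyperoxia at P5 and 32.4% at P14, and in A34a mice 29.5% and 37.8%.

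Of 12 genes shared by most macrophages, 8 were called higher at P5 and none lower. At P14 they were mixed (7 higher, 3 lower). Cd14, the co-receptor for bacterial lipopolysaccharide, was 1.56 higher at P14, and Aif1, an actin-binding protein of activated macrophages, was 1.48 higher. Lyz2, the lysozyme of macrophages and neutrophils, fell by 1.18 at P14 and gave no call at P5 (-0.02).

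Interstitial macrophage genes had 8 of 11 called higher at P5 and 10 at P14, with 1 lower each time. Lyve1, a hyaluronan receptor, was at 2.12, 2.14, 2.37 and 2.28 in 21% O2 at P14 and at 3.80, 3.92, 3.67 and 3.47 in 85% O2. C1qc, a chain of the complement component that tags debris, was at 1.21, 0.89, 1.10 and 0.91 against 2.50, 2.61, 2.67 and 2.40. Both genes were separate between oxygen levels, with differences of 1.49 ± 0.14 and 1.52 ± 0.11 (SE, n = 4 per group). Ms4a7 was 1.77 higher at P14 and 1.06 higher at P5. Lyve1 also marks lymphatic endothelium, with 2 of 6 tested genes called higher at P5 (Lyve1 and Pdpn). At P14, 3 of them were called higher and 2 were called lower. Its defining gene Prox1 was -0.43 at P5 (adjusted p = 0.1534) and fell by 0.59 at P14. The score of that list counts Lyve1 itself. At P5 it ran from -0.07 to 0.06 in 21% O2 and from 0.16 to 0.27 in 85% O2. At P14 it ran from -0.39 to -0.24 in 21% O2 and from -0.17 to 0.12 in 85% O2. The median difference of the 6 genes was -0.11 at P5 and 0.07 at P14. The score thus cannot show lymphatic content apart from Lyve1. The part of lymphatic endothelium in the values of Lyve1 was not tested.

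Alveolar macrophage genes divided. Of 15 tested, 6 were higher and 4 lower at P5. The counts at P14 were 4 higher and 6 lower. Siglecf, a sialic acid-binding receptor used to mark these cells, was at 0.20, 0.15, 0.31 and -0.17 in 21% O2 at P14 and at -2.41, -2.68, -2.50 and -2.82 in 85% O2. Ear1, an eosinophil-associated ribonuclease, was at 2.51, 2.58, 2.55 and 2.32 against -0.06, -0.39, -0.45 and -0.74. The groups lay far apart, with differences of -2.72 ± 0.13 for Siglecf (SE, n = 4 per group) and -2.90 ± 0.13 for Ear1. Fabp4, a fatty acid-binding protein also found in endothelium, fell by 3.51 ± 0.84. Chil3 (-2.42), Ear2 (-2.31) and Krt79 (-1.70) were also lower. Higher at both ages were Itgax, Plet1 and Atp6v0d2, the last at 1.07 at P5. Group means of Siglecf in SCR mice were -0.80 at P5 and 0.12 at P14 in 21% O2, and -1.41 at P5 and -2.60 at P14 in 85% O2. Those of Ear1 were 1.13 and 2.49 in 21% O2, and 0.77 and -0.41 in 85% O2. Both genes were thus higher at P14 than at P5 in normoxia and lower in hyperoxia, a difference not tested. In A34a mice at P14, 4 were higher and 6 lower too, with Siglecf at -2.57 in 85% O2 and 0.00 in 21% O2.

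Lipid-handling and lysosome genes had 11 of 12 called higher at P5 and 7 at P14, when 1 was lower. Lgals3 (galectin-3) rose by 1.43 at P5 and 1.03 at P14, and the lysosomal protease gene Ctsd by 0.78 and 1.16. Cd36, a fatty acid and lipoprotein receptor also made by endothelium, was the one lower at P14 (-1.28).

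Monocyte genes had 2 of 9 called higher at P5 and 1 at P14, while 2 and 5 were called lower. Itgam, an integrin chain of monocytes and neutrophils, fell by 2.04 at P14. Nr4a1, a stress-induced factor needed for patrolling monocytes and made by many other cells, rose by 1.76 at P5 and 2.08 at P14. Neutrophil genes had 2 of 8 lower and none higher at P5. At P14, 3 were higher and 1 lower (Retnlg, -1.96).

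**Figure D4:**
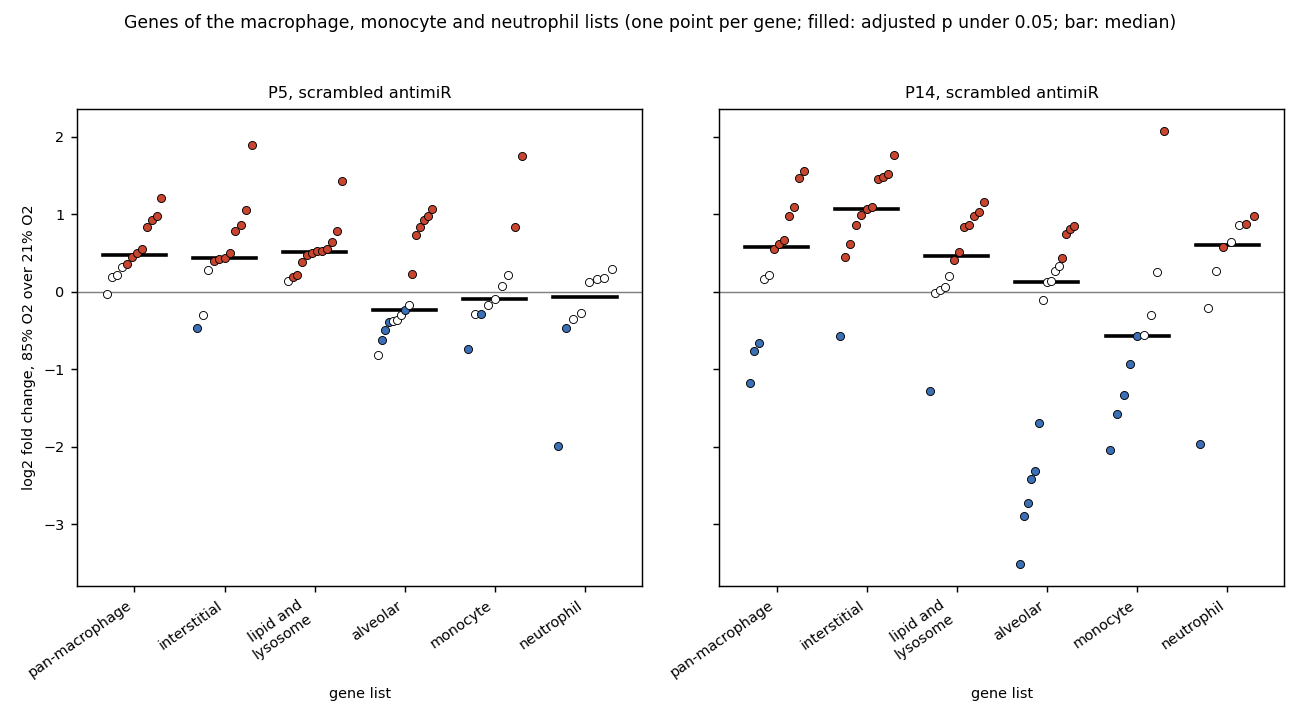
Difference between 85% O2 and 21% O2 (y axis, log2) of each gene in 6 lists (x axis) in SCR mice at P5 and P14, filled where the adjusted p was under 0.05, with a bar at the list's median. The interstitial list has a median of 1.07 at P14, while the alveolar list runs from -3.51 to 0.85.

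Of the ligands and partner chains of the growth factor receptors, 4 of 6 were called higher at P5 and 3 at P14, with 1 lower each time. Il34, the second ligand of CSF1R, rose by 0.77 at P5 and 1.11 at P14. Csf2, which encodes GM-CSF, rose by 0.82 and 0.66. Csf1, which encodes M-CSF, rose by 0.61 and 0.503. Csf2rb, the signalling chain that pairs with CSF2RA, rose by 0.78 at P5 and was 0.36 at P14 (adjusted p = 0.0891). The one lower at both ages was Csf3r, the G-CSF receptor of neutrophils.

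Among genes that signal with TREM2 or CSF1R, 5 of 10 were higher at P5 and 4 at P14, when 3 were lower. Tyrobp, the adaptor of TREM2, rose by 0.93 ± 0.18 (SE, adjusted p = 0.0007683) at P5 and was 0.22 ± 0.17 at P14 (adjusted p = 0.273). Spi1, which encodes PU.1, rose by 0.84 at P5 and fell by 0.66 at P14, with overlapping groups each time. Other scavenger receptors were split, with 5 of 11 higher at P5 and 4 at P14, against 4 and 6 lower. Olr1, a receptor for oxidized LDL, was 1.502 higher at P5, and Scara5, a ferritin receptor, fell by 1.75 at P14. Of 8 receptors for osteopontin, 3 were called higher at P5 and 4 at P14, led by Itgb1 (1.04) and Cd44 (0.86), and Itga4 was lower at P14.

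Other cells also use some of these genes. Osteoclasts, which express Spp1, Gpnmb and Csf1r, had 1 of 6 tested marker genes higher at P5 and 2 of 8 at P14, against 1 and 4 lower. Their score ran from 0.24 to 0.57 in 21% O2 and from 0.04 to 0.39 in 85% O2 at P14. Melanocytes, which express Gpnmb, had 0 of 4 higher and 3 lower at P5, and 0 of 3 called at P14. Dendritic cell genes had 1 of 6 higher at P5, and 4 higher and 2 lower of 8 at P14, with a score from 0.21 to 0.83 in 21% O2 and from 0.61 to 0.96 in 85% O2. Cartilage genes, a sign of airway or rib tissue in a sample, had 3 of 5 lower at P5 and 4 of 6 lower at P14. Skeletal muscle genes had 3 of 6 lower at each age, and 1 of 6 at each age in A34a mice. At P5 the normoxic SCR group held the array with muscle genes. The part of the dendritic cell, cartilage and muscle content in the 9 genes' values was not tested.

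No list gene tested was called between A34a and SCR at P5 at either oxygen level, and none of 130 was in 21% O2 at P14. In 85% O2 at P14, 3 were called (Csf1, Camp and Ngp), in the comparison where the methods' t-test called 0 of all probes and the fit of the compared groups alone called 2.

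The genes whose group means followed each member most closely were sought among 15988 genes, with Pearson r over 8 group means, given as a description. Cd68 was most like Plet1, Htatip2 and Lgals3 (r from 0.992 to 0.994). Marco was most like Ctsd, Prdx1 and Aldh4a1 (0.994 to 0.996). Gpnmb was most like Mgst1, Nupr1 and Atp6v0c (0.995 to 0.996), the last a subunit of the lysosomal proton pump. Trem2 followed Tysnd1, Timm13 and Trappc2l (0.997 to 0.998), Spp1 followed Polr2f, Tom1 and Ccnd2 (0.993 to 0.998), and Msr1 followed Krt18, Slc22a18 and Acaca (0.997 to 0.999). Of these genes, Plet1, Lgals3 and Ctsd were on the macrophage lists, and the 8 points share the same arrays for every gene. Mrc1 was most like Plec, Uqcrq and Cp (0.992 to 0.995), Csf1r like P4htm, Lpin3 and Bcar3 (0.980 to 0.988), and Csf2ra like Slc3a1, Dcaf15 and Tbce (0.955 to 0.974).

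Deviations from the group mean were correlated over the 32 arrays for all 36 pairs of genes, with 100000 permutations within groups, and r was above 0 in 36 of 36 (0.14 to 0.70, median 0.47). Over all pairs of 38982 tested probes, r was above 0 in 50.4%, with a median of 0.00. Of the 36, 17 pairs passed the threshold in both r and Spearman's rho after adjustment. Cd68 and Trem2 were closest (r = 0.70, permutation p = 0.00017, adjusted p = 0.00264, rho = 0.63, permutation p = 0.00079, adjusted p = 0.00948), and r was 0.68 without the 2 arrays farthest out in Cd68. Csf1r and Csf2ra followed each other too (r = 0.60, permutation p = 2e-05, adjusted p = 0.00072, rho = 0.74, permutation p = 3e-05, adjusted p = 0.00108), with r at 0.77 without the 2 arrays farthest out in Csf1r. Within single ages (16 arrays, adjusted over 36), 2 pairs passed in r at each, Cd68 with Trem2 at P14 (r = 0.81, permutation p = 0.00182, adjusted p = 0.0328) and Csf1r with Csf2ra at P5 (r = 0.73, permutation p = 0.002, adjusted p = 0.036) among them. The number of pairs fell to 8 without SCR replicate 1 in 85% O2 at P5, to 8 without SCR replicate 1 in 85% O2 at P14, and to 11 without SCR replicate 4 in 21% O2 at P14.

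Array brightness moved with the same deviations, and 8 of the 9 genes passed the threshold in r with it, Marco being the exception. The 75th percentile of the array correlated with the deviation of Csf2ra (r = 0.82, permutation p = 1e-05, the smallest they can give, adjusted p = 9e-05, rho = 0.85), of Csf1r (r = 0.59, adjusted permutation p = 0.00087, rho = 0.69) and of Cd68 (r = 0.54, adjusted permutation p = 0.00087, rho = 0.58). It did so least for Marco (r = 0.22, adjusted permutation p = 0.272, rho = 0.16). The part of brightness in the correlations between genes was not tested.

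**Figure D5:**
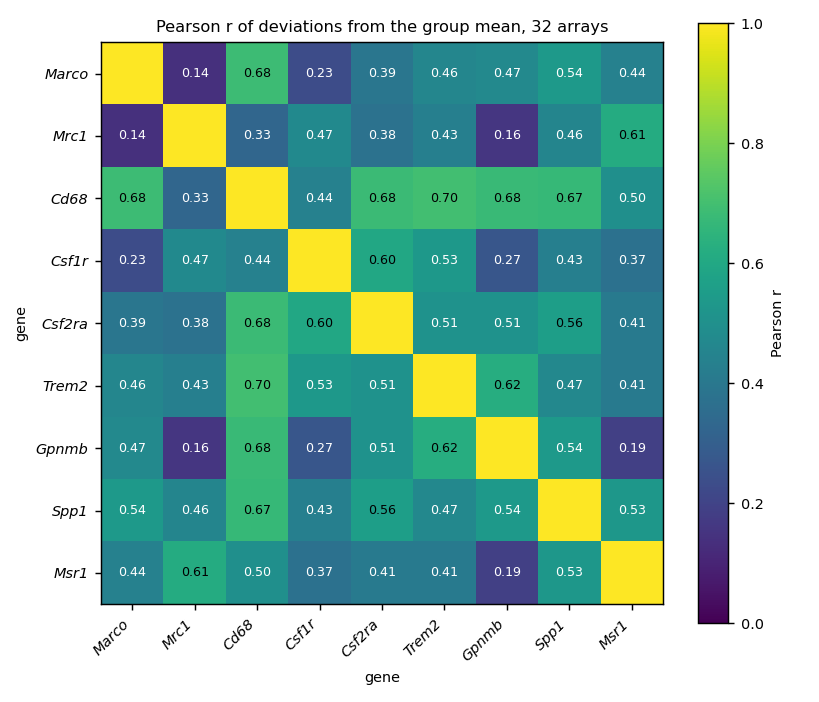
Pearson r between the deviations of each pair of genes from their group means over 32 arrays, as a colour scale from 0 to 1 with the value in each cell. Cd68 has r between 0.67 and 0.70 with Marco, Csf2ra, Trem2, Gpnmb and Spp1, and the lowest r is 0.14, between Marco and Mrc1.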

How the data were processed

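Whole-lung RNA of 32 mice was hybridized to one-colour Agilent mouse arrays. The deposited array files hold spot intensity from Agilent Feature Extraction 10.7.3.1 (per the file headers), background-subtracted and not normalized between arrays. A series-wide table of log2 values made by the authors served as an alternative. It correlated with the log2 processed signal at 0.997 or above on every array.

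Outlier spots (0.211%) and control spots were left out, spots of a probe were averaged, and each array's 75th percentile was subtracted from its log2 processed signals. A probe was tested when 1 or more of the fitted groups had it well above background on all 4 arrays, which left 35982 probes at P5, 38455 at P14 and 39162 over both. Groups were compared with limma 3.58.1 (R 4.3.3, with the package data.table, version 1.17.8), fitted per age, or over all arrays for differences between ages. P-values were Benjamini-Hochberg adjusted over all tested probes, with a threshold of 0.05. Intervals are at 95%. A list score is the mean, over its genes, of the level minus the gene's mean over all arrays.

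The members, gene lists and tests were chosen with earlier results of these data known, and support nothing by their choice. Named were all members, up to 3 called genes per list with the largest change in each comparison of oxygen levels in scrambled antimiR mice, and the 3 genes most like each member. Others (Chil3, Ear2, Krt79, Itgax, Csf1, Itga4 and Ngp) were named after their values were seen. Of 144 list genes, 142 had a probe and 131 were tested. Some list genes that the rule would name are counted in their lists but not reported here by name.

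The test was tried on simulated data for 85% O2 against 21% O2 in scrambled antimiR mice at P14 (38455 probes): it called 32% of probes changed by 0.5 on the log2 scale, 60% at 1 and 90% at 2. Only 50 probes were given each change and the rest were left unchanged, while the real comparison called 60.8% of probes. The adjustment depends on that share, so these percentages do not measure how often real changes were called. Alternatives were normexp background correction (offset 50), quantile normalization, 2 other filters on dim probes, a fit without the groups not compared, the t-test of the methods, a replicate block, a slide block for the antimiR (no other model than the main one, since a slide held both arms), array brightness as a covariate, the authors' values, the mean over probes, a 2-fold threshold, and each array left out in turn. Leaving out the 2 arrays of unusual brightness together was added after seeing the data.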

Additional observations from a re-analysis of the deposited data

Results flagged for a closer look

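In 6 of 72 sets of 4 arrays (9 genes in 8 groups), 1 array stood far from the other 3, where chance flags about 1 in 20. Marco was at 3.05 on SCR replicate 1 in 85% O2 at P5, with the others between 4.01 and 4.09, and Gpnmb was at -0.96 on that array. Csf2ra was at 3.102 on SCR replicate 4 in 21% O2 at P14, with the others between 3.47 and 3.54. Among A34a mice in 85% O2, Spp1 was at -2.59 on replicate 3 and Msr1 at -3.06 on replicate 1 at P5, and Msr1 was at -1.37 on replicate 2 at P14.

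The effect of 85% O2 in SCR mice differed between ages, by the test of the difference, for Trem2 (1.31 larger at P14), Msr1 (0.86) and Mrc1 (0.58). The same test called 40.9% of all probes in either direction. The call of Msr1 was lost in 7 of 16 fits that each left out an array.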

How the results depend on the processing

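With a 2-fold threshold, the genes called fell to 5 for 85% O2 in SCR mice at P5 and at P14, to 6 in A34a mice at both ages, to 1 for age and to 1 for the difference between ages. With both P14 21% O2 arrays of unusual brightness left out, the antimiR comparison there called 1 of the 9 genes, Csf2ra (-0.36, adjusted p = 0.03534), and 5943 probes in all against 0. In the arrays left, brightness and antimiR cannot be told apart. Leaving out 1 array at a time gave 7 to 8 calls for 85% O2 in SCR mice at P5 and 7 to 7 at P14, 6 to 8 and 7 to 8 in A34a mice, 2 to 4 for age, 2 to 3 for the difference between ages, 0 to 0 for each antimiR comparison and for its difference between oxygen levels, and 8 to 21 correlated pairs. Csf1r at P5 lost its call without SCR replicate 3 in 21% O2 (0.24, adjusted p = 0.05545) or SCR replicate 4 in 85% O2 (0.23, adjusted p = 0.06017). Mrc1 in A34a mice at P5 lost it without A34a replicate 1 in 21% O2 (0.26, adjusted p = 0.06572) or A34a replicate 2 in 85% O2 (0.24, adjusted p = 0.06436). No difference of the 9 genes called with the main settings changed direction under the alternatives run.

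Samples shared only a replicate number: correlations of same-numbered arrays ran from -0.31 to 0.53 (median 0.03). The replicate block left the counts of the 9 genes at 8 and 7 for 85% O2 at P5, 7 and 7 at P14, 3 and 3 for age and the difference between ages, and 0 for the antimiR. It cut the antimiR calls over all probes to 7 from 49 (21% O2, P5), to 2 from 23 (85% O2, P5) and to 702 from 1024 (85% O2, P14), a comparison with 2 calls when the compared groups alone were fitted and 0 with the methods' t-test. Normexp correction called 1.02% of probes in 21% O2 at P5, against 0.136%, and gave 336 calls in 85% O2 at P14. Quantile normalization gave 88 and 577, and testing all probes gave 4283 calls in 85% O2 at P5. The cause was not tested.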
